A study of Mus musculus with 12 samples.

Results

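The 10 genes described here encode the core enzymes of polyamine synthesis and turnover and their protein regulators: Odc1, Amd1, Amd2, Srm, Sms, Smox, Sat1, Oaz1, Oaz2 and Azin1. They were chosen by symbol from the pathway and not by a rule on measured values, though with earlier results of these data known. All 10 were found among the 14270 genes of the expression table. All 10 also passed the filter on low values, a mean of at least 1 FPKM (fragments per kilobase of transcript per 1e+06 fragments), which left 9953 genes for testing. RNA was sequenced from tibialis anterior, a fast-twitch muscle of the lower hind limb, in 12 mouse libraries. They form 4 groups of 3 by a genotype label, WT or KO, and a time label, ZT10 or ZT22, where ZT is hours after lights on. The KO mice are named as skeletal muscle specific knockouts of Rev-erbs, and the WT mice carry no stated allele; the design asks how mRNA levels differ between these genotypes. The sources used here do not give the Cre driver, the exact alleles, or the strain, sex and age of the mice, and whole muscle also holds cells that a deletion in muscle fibres does not reach. The titles give ZT10 and ZT22 while the design text gives ZT0 and ZT12, and the titles are used here.

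The polyamines putrescine, spermidine and spermine are small positively charged molecules that bind nucleic acids and are needed for growth and translation. Ornithine decarboxylase makes putrescine, and spermidine synthase and spermine synthase then add aminopropyl groups, which come from S-adenosylmethionine after its decarboxylation by the AMD1 enzyme. Antizymes bind ornithine decarboxylase and send it to the proteasome, the antizyme inhibitor releases it, and spermine oxidase and the acetyltransferase SAT1 run the pathway backwards. In muscle the pathway is known for its response to growth signals, and polyamine levels have been tied to the circadian clock. REV-ERB alpha and beta, encoded by Nr1d1 and Nr1d2, are nuclear receptors of the clock that repress transcription.

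The genotype labels were checked first on the genes that encode REV-ERBs. Nr1d1 stood at 27.6 to 37.0 FPKM in WT at ZT10 against 359 to 503 FPKM in KO, and at 38.0 to 54.0 against 328 to 369 FPKM at ZT22. Nr1d2 stood at 37.5 to 43.6 FPKM in WT and 36.5 to 40.6 FPKM in KO at ZT10 (log2 difference -0.07 ± 0.08, limma, adjusted p = 0.594), and at 28.4 to 29.7 against 36.3 to 38.9 FPKM at ZT22. Neither gene showed a loss of the transcript, and Nr1d1 went the opposite way, but values per gene cannot show the loss of single exons, so the text speaks of the libraries labelled KO throughout. Arntl and Clock, clock genes that REV-ERBs repress, were higher in the libraries labelled KO at both times, with Arntl at 3.32 to 4.09 FPKM in WT and 33.0 to 42.0 FPKM in KO at ZT10. Within groups, libraries correlated at 0.978 to 0.993 across genes; the lowest of these correlations, 0.978 and 0.982, were those of KO ZT10 replicate 3 with the other libraries of its group. Markers of muscle fibres were high in every library. Their summed level, over 8 of 8 markers, was 100100 to 113200 FPKM in WT and 124900 to 134600 FPKM in KO at ZT10, and 75780 to 86990 against 93550 to 98040 FPKM at ZT22. The sum of 5 of 5 endothelial markers was 56.7 to 61.2 and 49.3 to 65.0 FPKM at ZT10, in WT and KO, and 88.6 to 110.9 and 76.1 to 83.9 FPKM at ZT22. Markers of erythrocytes, adipocytes, fibroblasts, macrophages, satellite cells and Schwann cells were summed as well. The sum of 4 of 4 erythrocyte markers was 376 to 1039 and 503.9 to 824.1 FPKM at ZT10, in WT and KO. At ZT22 it was 284.5 to 471.7 and 321.7 to 418.4 FPKM. No marker was at 0 in every library. The part of these shifts in the results below was not tested, and in whole muscle fewer cells of a type and less RNA per cell cannot be told apart.

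At ZT10, 2 of the 10 polyamine genes, Smox and Amd1, were lower in the libraries labelled KO, and none was higher (limma, adjusted p under 0.05 over all genes tested). At ZT22, 3 were lower, Smox, Amd1 and Oaz1, and again none was higher. Over all genes tested, 14.3% were called between genotypes at ZT10 and 18.3% at ZT22, so by adjusted p the number of polyamine genes called is close to that background. An unadjusted p under 0.05 in limma, in either direction, was found for 8 of the 10 genes at ZT10 and 5 at ZT22. Of all 9953 genes tested, 2875 and 3209 had such a p. The median log2 difference of the 10 genes was -0.43 at ZT10 and 0.11 at ZT22, beside -0.05 and -0.04 for all genes tested. The ZT10 count rose to 5 without KO ZT10 replicate 1, and the ZT22 count fell to 1 without WT ZT22 replicate 1 or without KO ZT22 replicate 3. Over all genes tested, the ZT10 count was 1425 with all libraries and 1562 without KO ZT10 replicate 1. At ZT22 it was 1826 with all libraries, 1110 without WT ZT22 replicate 1 and 1233 without KO ZT22 replicate 3. Every comparison below shares each of its groups with another comparison, so they are not independent of one another.

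**Figure D1:**
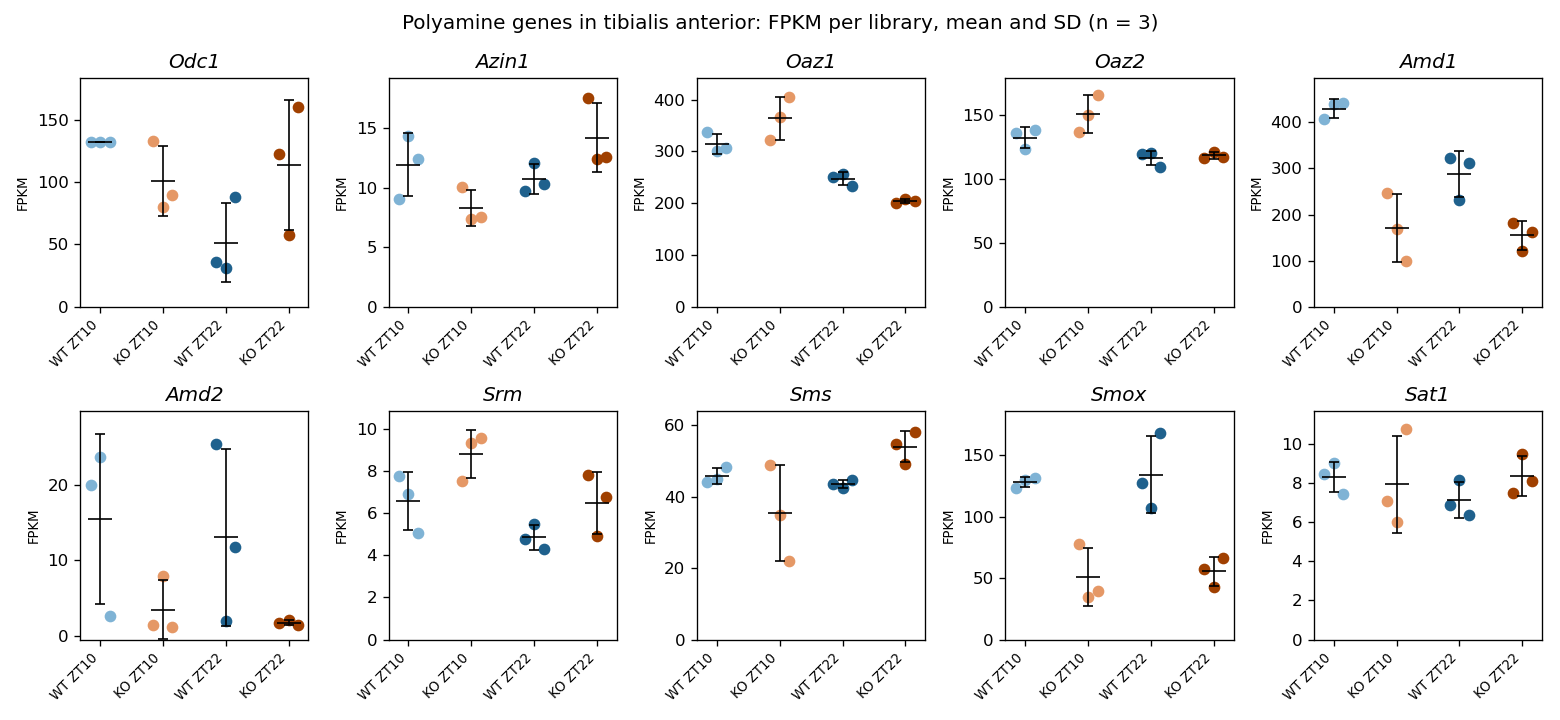
FPKM of the 10 polyamine genes in each of the 12 libraries, by group (points, in replicate order), with the group mean (dash) and SD (bars, n = 3); each panel has its own axis. Smox and Amd1 are lower in every library labelled KO than in any WT library of the same time, and Odc1 at ZT22 spreads from 30.6 to 87.6 FPKM in WT and from 57.3 to 160 FPKM in KO.

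By level per transcript length, averaged over the 12 libraries, Oaz1 was the highest at 283 FPKM and Amd1 was next at 261 FPKM. Oaz2 (129 FPKM), Odc1 (99.5 FPKM) and Smox (92.2 FPKM) followed. All 5 lay between the 93.6th and the 97.8th percentile of the genes tested. Sms stood at 44.7 FPKM, and Azin1, Amd2, Sat1 and Srm lay between 6.67 and 11.3 FPKM, near the middle of the tested range. Neighbours in this order overlapped in range over the libraries, except Sms (22.1 to 58.0 FPKM) and Azin1 (7.37 to 17.6 FPKM): Odc1, for example, covered 30.6 to 160 FPKM and Smox 35.0 to 168 FPKM. Spermidine synthase was thus represented by less mRNA per length than spermine synthase. The Sms to Srm ratio was 7.27 ± 2.05 in WT at ZT10 and 9.09 ± 1.32 in WT at ZT22 (mean ± SD, n = 3). In KO it was 4.19 ± 2.14 at ZT10, with libraries from 2.31 to 6.51, and 8.6 ± 1.5 at ZT22.

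Odc1 (chr12:17544794-17551505, plus strand, GRCm38, GENCODE M21) encodes ornithine decarboxylase, the enzyme of the first committed step. In WT it stood at 132.25, 132.24 and 132.5 FPKM at ZT10 and at 35.9, 30.6 and 87.6 FPKM at ZT22. In the libraries labelled KO it stood at 132.6, 79.9 and 89.6 FPKM at ZT10 and at 122.6, 57.3 and 160 FPKM at ZT22. The WT times did not overlap, the genotypes overlapped at both times, and the KO libraries of the 2 times overlapped. In WT, Odc1 was lower at ZT22 by a log2 difference of -1.51 ± 0.39 (SE; limma, adjusted p = 0.0151), which is 2.84-fold on the log2(FPKM + 1) scale. That call was lost without WT ZT10 replicate 1 (adjusted p = 0.0513), WT ZT22 replicate 1 (0.0615) or WT ZT22 replicate 2 (0.0698). In KO the difference between times was 0.08 ± 0.39 (adjusted p = 0.883).

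The Odc1 genotype difference was -0.43 ± 0.39 at ZT10 (limma, adjusted p = 0.507) and 1.16 ± 0.39 at ZT22 (adjusted p = 0.0546). The ZT22 value passed the threshold without WT ZT22 replicate 3 (adjusted p = 0.00872), KO ZT22 replicate 2 (0.0149) or KO ZT10 replicate 3 (0.0493). The difference between the genotype differences was 1.59 ± 0.55 (adjusted p = 0.181), so a different time course in the genotypes was not called. The 3 WT libraries at ZT10 differed by an SD of only 0.147 FPKM, against 52.2 FPKM in KO at ZT22. The fit uses 1 spread for all 4 groups, so the standard error is an average over these unequal spreads. In the authors' deposited table, Odc1 had a log2 fold change of -1.49 between times in WT with a q of 0.0343, and 1.14 between genotypes at ZT22.

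The antizymes Oaz1 (chr10:80826656-80829290, plus strand) and Oaz2 (chr9:65668001-65690300, plus strand) are made only when ribosomes shift frame at a stop codon inside the message, a step that polyamines promote. The site is shown for both because it defines these genes as sensors of the product of the pathway; the capitals mark the codon before the shift and the stop codon, TCCTGA, read from the GRCm38 genome at chr10:80828283-80828306 for Oaz1 and at chr9:65686260-65686283 for Oaz2. Of 24 bases, 22 were identical.
Oaz1: cggtggtgcTCCTGAtgtccctca
Oaz2: ctgtggtgcTCCTGAtgcccctca

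Oaz1 fell at ZT22 in both genotypes. In WT it went from 337, 301 and 307 FPKM at ZT10 to 251, 257 and 233 FPKM at ZT22, and in KO from 322, 366 and 405 FPKM to 200, 208 and 205 FPKM. The times did not overlap in either genotype. The log2 difference was -0.35 ± 0.09 in WT (limma, adjusted p = 0.0135) and -0.83 ± 0.09 in KO (adjusted p = 4.5e-05). The WT call was lost without WT ZT10 replicate 1 (adjusted p = 0.0549), and the KO call held in 19 of 19 alternatives. Between genotypes at ZT22 the libraries labelled KO were lower without overlap, by -0.27 ± 0.09 (adjusted p = 0.048), but this call was lost in 13 of 19 alternatives. Among these were no filter on low values (adjusted p = 0.0583), median-of-ratios scaling (0.076), removal of a transcript length trend (0.0787), the fits without any of the 6 libraries of ZT22 (adjusted p from 0.0514 to 0.153), without WT ZT10 replicate 2 (0.0576) or replicate 3 (0.064), and without KO ZT10 replicate 2 (0.0609). At ZT10 the difference had the other sign, 0.20 ± 0.09 (adjusted p = 0.142), and it passed without KO ZT10 replicate 1 (0.0359). The difference between the genotype differences was -0.48 ± 0.12 (adjusted p = 0.106), and its adjusted p was 0.0493 without KO ZT10 replicate 1.

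Oaz2 fell at ZT22 in KO, from 136, 150 and 166 FPKM to 116, 121 and 117 FPKM. The log2 difference was -0.34 ± 0.08 (limma, adjusted p = 0.00564), and it was called in 19 of 19 alternatives. In WT it stood at 136, 123 and 138 FPKM at ZT10 and at 119, 120 and 110 FPKM at ZT22, again without overlap, with a difference of -0.18 ± 0.08 (adjusted p = 0.125). Scaling by the median of ratios, a common factor per library, brought this to -0.30 (adjusted p = 0.0145). The genotypes did not differ past the threshold at either time. The median of all genes tested was itself 0.11 higher at ZT22 in KO and 0.09 higher in WT before that scaling, and at -0.001 and -0.005 after it. The summed muscle fibre markers, given above, were also lower at ZT22 in both genotypes, and their part in the Oaz1 and Oaz2 differences was not tested.

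Azin1 (chr15:38487427-38519266, minus strand), the antizyme inhibitor, moved the other way in KO. It stood at 10.1, 7.37 and 7.54 FPKM at ZT10 and at 17.6, 12.4 and 12.6 FPKM at ZT22, with no overlap. The log2 difference was 0.70 ± 0.17 (limma, adjusted p = 0.00626; called in 19 of 19 alternatives). In WT the values were 9.09, 14.3 and 12.4 FPKM at ZT10 and 9.74, 12.1 and 10.3 FPKM at ZT22, which overlap (-0.13 ± 0.17, adjusted p = 0.633). The difference of these differences was 0.83 ± 0.24 (adjusted p = 0.138). Between genotypes Azin1 was at -0.46 ± 0.17 at ZT10 (adjusted p = 0.0949) and 0.36 ± 0.17 at ZT22 (adjusted p = 0.167). The ZT10 value passed without WT ZT10 replicate 1 (0.0308) or KO ZT10 replicate 1 (0.0463). The gene overlaps an annotated antisense gene, Gm49077, and the sources used here do not state a strand setting for counting, so reads of the pair cannot be told apart. Odc1, Oaz1 and Azin1 each hold a small RNA gene on their own strand, namely Gm22748, Mir1982 and Mir6951.

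Amd1 (chr10:40287458-40302186, minus strand) encodes S-adenosylmethionine decarboxylase, which supplies the aminopropyl donor. At ZT10 it stood at 407, 440 and 443 FPKM in WT and at 247, 168 and 98.7 FPKM in KO. At ZT22 it stood at 324, 232 and 311 FPKM in WT and at 181, 121 and 161 FPKM in KO. The genotypes did not overlap at either time. The log2 difference was -1.42 ± 0.26 at ZT10 (limma, adjusted p = 0.00324), or 2.68-fold lower, and it was called in 19 of 19 alternatives. At ZT22 it was -0.90 ± 0.26 (adjusted p = 0.0309). That call was lost without WT ZT22 replicate 1 (adjusted p = 0.106), WT ZT22 replicate 3 (0.0788), KO ZT22 replicate 2 (0.114) or KO ZT22 replicate 3 (0.0615). The genotype difference did not differ between times past the threshold (0.52 ± 0.37, adjusted p = 0.506). In WT, Amd1 was lower at ZT22 without overlap, at -0.59 ± 0.26 (adjusted p = 0.12). This was called when only the 2 groups were fitted (0.00883), without KO ZT10 replicate 3 (0.0234) or without KO ZT10 replicate 1 (0.0489).

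Amd2 (chr10:35708675-35711892, minus strand) is a near copy of Amd1 with 1 exon. The transcript of Amd1 (3204 bases) and that of Amd2 (3218 bases) had 3190 identical bases of 3204 aligned, or 99.56%, and their coding sequences of 1002 bases differed at 1 position. Of all stretches of 100 bases in Amd2, 72.9% occur unchanged in Amd1, so reads of these genes can be split or dropped depending on how multiple matches were counted, and both genes' values are uncertain for that reason. The coding stretch around the position that differs, bases 766 to 825 of the coding sequence at chr10:40290157-40290216 for Amd1 and chr10:35710735-35710794 for Amd2 (GRCm38, minus strand), is shown with that base in capitals.
Amd1: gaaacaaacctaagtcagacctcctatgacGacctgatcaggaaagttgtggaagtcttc
Amd2: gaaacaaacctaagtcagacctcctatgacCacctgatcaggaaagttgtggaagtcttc

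Amd2 values jumped between libraries of a group: 19.9, 23.8 and 2.59 FPKM in WT and 1.38, 7.91 and 1.07 FPKM in KO at ZT10, then 25.4, 1.95 and 11.7 FPKM in WT and 1.63, 2.03 and 1.42 FPKM in KO at ZT22. The genotypes overlapped at both times. The log2 differences were -1.80 ± 0.83 at ZT10 (limma, adjusted p = 0.171) and -1.89 ± 0.83 at ZT22 (adjusted p = 0.135), and neither passed; the latter reached -2.77 (adjusted p = 0.0428) without WT ZT22 replicate 2. Amd2 was 0.0363 ± 0.0265 of the Amd1 level in WT at ZT10 (mean ± SD, n = 3), so that a sum of both genes is close to Amd1 alone.

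Srm (chr4:148591503-148594993, plus strand), spermidine synthase, was called in no comparison. It stood at 7.74, 6.89 and 5.04 FPKM in WT and 7.51, 9.32 and 9.57 FPKM in KO at ZT10, and at 4.77, 5.47 and 4.31 FPKM against 7.81, 4.9 and 6.74 FPKM at ZT22. The genotypes overlapped at both times, with log2 differences of 0.39 ± 0.17 (limma, adjusted p = 0.147) and 0.34 ± 0.17 (adjusted p = 0.178). Between times Srm was at -0.36 ± 0.17 in WT (adjusted p = 0.139) and -0.40 ± 0.17 in KO (adjusted p = 0.0687). The WT value passed without WT ZT10 replicate 3 (0.0496). The KO value passed under median-of-ratios scaling (0.024) and without WT ZT10 replicate 3 (0.0491), KO ZT10 replicate 1 (0.0466) or KO ZT22 replicate 1 (0.0373).

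Sms (chrX:157443855-157492287, minus strand), spermine synthase, was higher at ZT22 than at ZT10 in KO. Its values in KO were 48.9, 34.9 and 22.1 FPKM at ZT10 and 54.7, 49.3 and 58.0 FPKM at ZT22, which do not overlap. In WT they were 44.1, 44.9 and 48.3 FPKM and then 43.7, 42.3 and 44.7 FPKM, which overlap and lie within a narrow range. The KO difference was 0.67 ± 0.20 (limma, adjusted p = 0.017). It was lost when only the 2 groups were fitted (0.0737), under median-of-ratios scaling (0.0562), when a trend with transcript length was removed (0.0935, an alternative chosen after seeing the data) and without KO ZT22 replicate 3 (0.054). At ZT22 the libraries labelled KO were above WT without overlap, at 0.30 ± 0.20 (adjusted p = 0.315; 0.0215 when only the 2 groups were fitted). At ZT10 the difference was -0.43 ± 0.20 (adjusted p = 0.168), and without KO ZT10 replicate 1 it was -0.70 (adjusted p = 0.009).

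Smox (chr2:131491496-131525922, plus strand) encodes spermine oxidase, which turns spermine back into spermidine and releases hydrogen peroxide. At ZT10 it stood at 123, 130 and 131 FPKM in WT and at 77.7, 35.0 and 39.6 FPKM in KO. At ZT22 it stood at 128, 107 and 168 FPKM in WT and at 57.3, 43.0 and 66.2 FPKM in KO. Every library labelled KO lay below every WT library. The log2 difference was -1.41 ± 0.25 at ZT10 (limma, adjusted p = 0.00303) and -1.25 ± 0.25 at ZT22 (adjusted p = 0.00553), or 2.66-fold and 2.39-fold lower. Both were called in 19 of 19 alternatives, where they ranged from -1.76 to -1.19 and from -1.41 to -1.08. The difference between the times was 0.15 ± 0.36 (adjusted p = 0.867), and neither genotype changed past the threshold between times (0.04 ± 0.25 in WT and 0.19 ± 0.25 in KO). Without KO ZT10 replicate 1, the highest KO library of that time, the KO difference between times was 0.54 (adjusted p = 0.0385).

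Sat1 (chrX:155213132-155216449, minus strand) encodes the acetyltransferase that marks spermidine and spermine for export or oxidation. All 12 libraries lay between 6 and 10.8 FPKM, and the groups overlapped in every comparison. The genotype difference was -0.09 ± 0.17 at ZT10 (limma, adjusted p = 0.764) and 0.20 ± 0.17 at ZT22 (adjusted p = 0.424). Of the turnover enzymes, the oxidase was thus lower in KO while the acetyltransferase was not called; the difference between these genes was not tested.

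**Figure D2:**
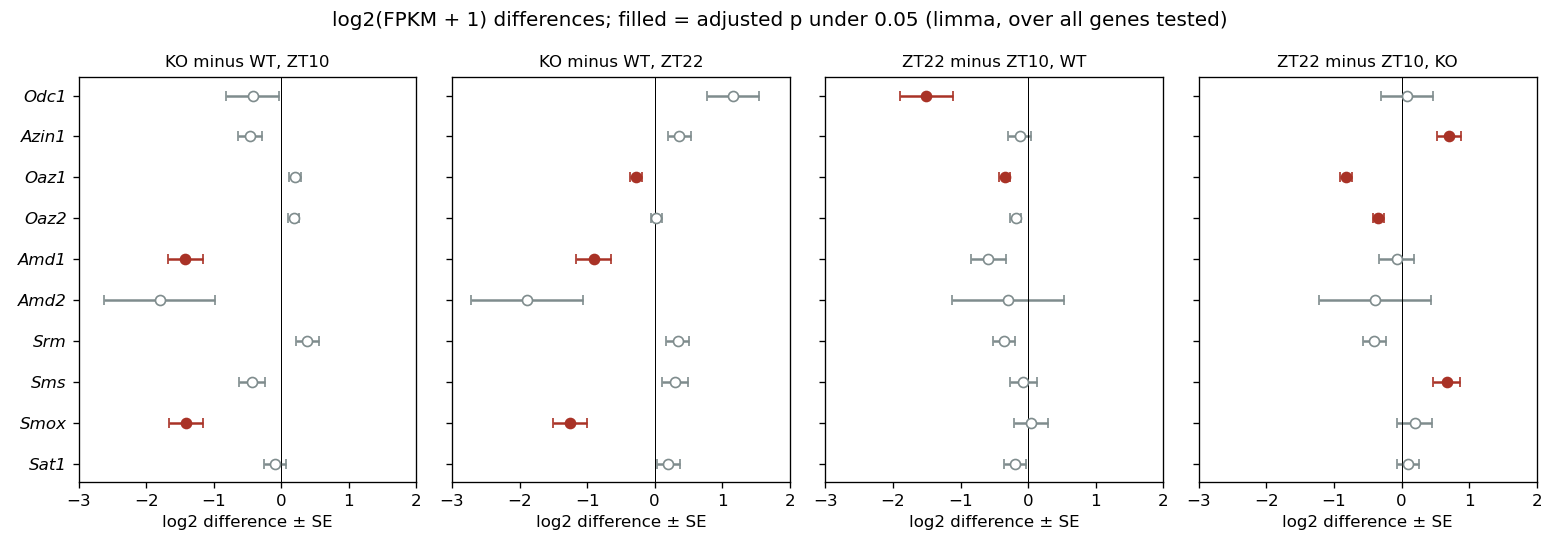
Log2 difference with its SE for each polyamine gene in 4 comparisons, from a limma fit on log2(FPKM + 1) over 12 libraries; filled red points have an adjusted p under 0.05 over all genes tested. Amd1 and Smox are filled and below 0 in both genotype panels, and the KO time panel has Azin1 and Sms above 0 and Oaz1 and Oaz2 below it.

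Between times, 2 of the 10 genes were called in WT, Odc1 and Oaz1, both lower at ZT22, beside 24.2% of all genes tested. In KO, 4 were called, with Azin1 and Sms higher and Oaz1 and Oaz2 lower at ZT22, beside 42.6% of all genes tested. Without WT ZT10 replicate 1 the WT count was 0, and it was 1 without WT ZT22 replicate 1 or replicate 2. Over all genes tested, 2404 were called in WT with all libraries, and 1406, 1477 and 1290 in these fits, in the same order. The median log2 difference of the 10 genes was -0.25 in WT and 0.01 in KO, beside 0.09 and 0.11 for all genes tested. For the difference between genotype differences, 0 of the 10 genes passed in limma, beside 0.0402% of all genes tested. Of the 10, 4 had an unadjusted p under 0.05 in that comparison, beside 17.0% of all genes tested (1696 of 9953), namely Odc1, Oaz1, Azin1 and Sms (0.73 ± 0.28, adjusted p = 0.217), and 2 passed without KO ZT10 replicate 1. In that fit 68 of all genes tested passed.

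Counted by groups that do not overlap, 2 genes were lower in KO at ZT10. At ZT22, 2 were higher (Sms and Azin1) and 3 lower (Amd1, Smox and Oaz1). Between times, 4 were lower at ZT22 in WT (Odc1, Amd1, Oaz1 and Oaz2), and in KO the 4 called genes did not overlap. Over all genes tested, 30.2%, 41.5%, 43.6% and 51.2% did not overlap in these comparisons, in the order given.

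The authors' deposited table holds their own fold changes and q-values. At a q under 0.05 it called 6.8% of its entries between genotypes at ZT10, with Smox (log2 fold change -1.28, q = 2.31e-05) and Amd1 (-1.26, q = 2.93e-05) among them. The authors' deposited table called 54.8% at ZT22, 8 of the 10 genes among them, and lists p and q of 0 there for Odc1, Amd1 and Smox. The sources used here do not state the model behind these values, and the ZT22 share is far above the shares of the other comparisons in the authors' deposited table. Between times the authors' deposited table called 14.5% in WT, with Odc1, Amd1 (log2 fold change -0.73, q = 3.21e-06), Oaz1 (-0.46) and Oaz2 (-0.33), and 20.9% in KO, with Oaz1 (-0.95), Oaz2 (-0.50) and Azin1 (0.63).

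Some of the genes varied together within groups. After each group's mean was taken out, the deviations of Amd1 and Sms over the 12 libraries correlated at 0.92, those of Odc1 and Smox at 0.81 and those of Amd1 and Smox at 0.74. The deviations were not scaled per group, so the group with the widest spread weighs most. For Sms the SD was 13.4 FPKM in KO ZT10 and 1.19 to 4.42 FPKM in the other groups. For Amd1 it was 74.2 FPKM and 19.9 to 49.8 FPKM. In both ZT22 groups replicate 2 was the lowest library for Amd1 and Sms, but replicate 1 was the highest for Amd1 and replicate 3 for Sms. Oaz1 and Oaz2 correlated at 0.90, and Oaz1 ran against Amd1 and Sms (-0.85 with each). These are descriptions over libraries that share a group mean, a library preparation and a scaling to total, and the named pairs were picked after their values were seen. Srm correlated with the others at -0.31 (Sms) to 0.45 (Oaz1), and Amd2 at -0.35 (Azin1) to 0.23 (Amd1). Sat1 ran against Amd1 (-0.78) and Sms (-0.71). KO ZT10 replicate 1 was the highest library of its group for Odc1, Amd1, Sms and Smox and the lowest for Oaz1 and Oaz2. KO ZT10 replicate 3 was the lowest of that group for Amd1 and Sms and the highest for Oaz1 and Oaz2.

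**Figure D3:**
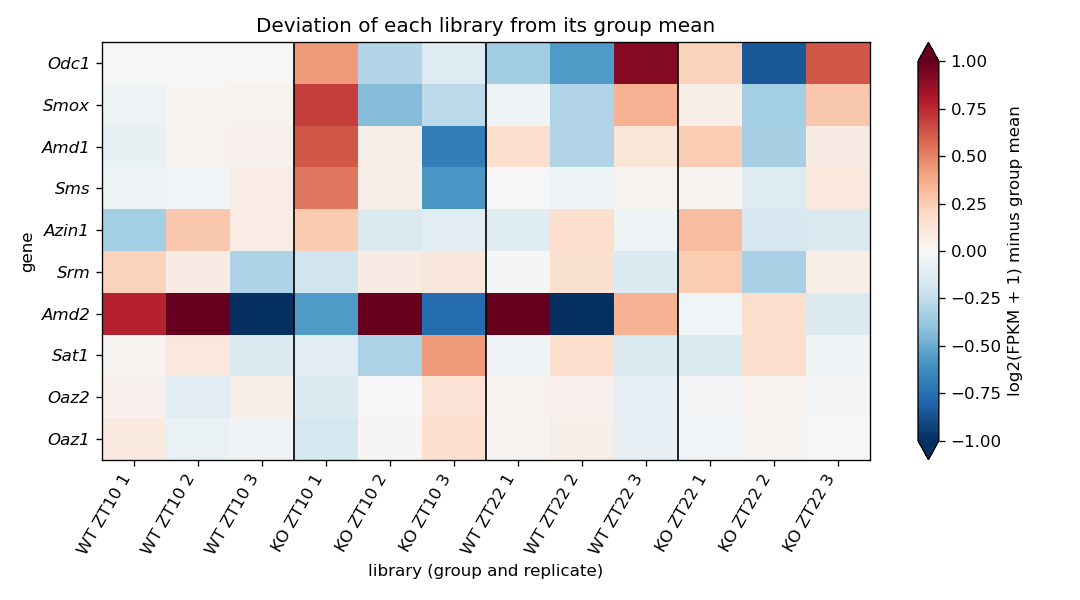
Deviation of each library from its group mean on the log2(FPKM + 1) scale, for the 10 genes (rows) and 12 libraries (columns, by group and replicate); the colour scale stops at 1 in both directions. In KO ZT10 replicate 1 the Odc1, Smox, Amd1 and Sms cells are red and the Oaz1 and Oaz2 cells blue, the WT ZT10 cells of Odc1 are near 0, and Amd2 has the widest swings.

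Ratios between the genes follow from these levels. The Smox to Odc1 ratio was 0.969 ± 0.031 in WT and 0.489 ± 0.084 in KO at ZT10, and 2.99 ± 0.92 against 0.544 ± 0.182 at ZT22 (mean ± SD, n = 3). The Odc1 to Oaz1 ratio was 0.421 ± 0.025 and 0.284 ± 0.111 at ZT10, and 0.213 ± 0.142 and 0.557 ± 0.258 at ZT22. The Odc1 to Oaz1 ratios overlapped between genotypes at both times. The Smox to Odc1 ratios did not overlap at either time. The WT libraries lay between 0.934 and 0.990 at ZT10 and between 1.92 and 3.55 at ZT22. The KO libraries lay between 0.439 and 0.586 and between 0.413 and 0.752. Smox itself did not overlap between genotypes, and the share of all gene pairs whose ratios do not overlap was not computed.

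The promoters of Smox and Amd1, the genes lower in KO at both times, are shown from RefSeq (GRCm38.p6), from 250 bases before to 50 after the annotated start, at chr2:131491612-131491911 (plus strand) and chr10:40302139-40302438 (minus strand). Capitals mark GC boxes, GGGCGG on either strand, of which the Smox window holds 6 and the Amd1 window 1. Windows were found for 8 of the 10 genes, 9 windows in all. The RefSeq starts are not always those of the GENCODE coordinates given above. The windows of Smox and Oaz2 and a Sms window lie wholly inside the GENCODE genes, downstream of their GENCODE starts.
Smox: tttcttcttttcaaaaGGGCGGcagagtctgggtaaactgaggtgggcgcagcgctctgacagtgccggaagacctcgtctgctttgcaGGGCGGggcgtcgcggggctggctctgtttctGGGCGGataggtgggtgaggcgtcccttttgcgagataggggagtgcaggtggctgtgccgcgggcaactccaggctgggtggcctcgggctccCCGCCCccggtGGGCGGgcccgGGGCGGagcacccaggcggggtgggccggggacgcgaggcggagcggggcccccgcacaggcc
Amd1: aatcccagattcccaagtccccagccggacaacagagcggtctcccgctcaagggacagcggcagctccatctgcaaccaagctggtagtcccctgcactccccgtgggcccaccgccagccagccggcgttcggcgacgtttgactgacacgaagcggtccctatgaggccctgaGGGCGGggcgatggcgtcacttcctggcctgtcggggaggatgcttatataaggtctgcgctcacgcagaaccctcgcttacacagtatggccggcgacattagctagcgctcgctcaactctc

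Each motif was searched by its letters on both strands. GGGCGG was in 6 of the 9 windows (those of Amd1, Oaz2, Odc1, Sat1 and Smox and a Sms window). It was in 35.7% of all 32851 promoters of that length. AGGTCA, the core of the longer element that REV-ERBs bind, was in the Amd2 window and in a Sms window, and in 16.3% of all promoters. CACGTG, the E-box that CLOCK and MYC dimers bind, was in a Sms window, and in 7.2% of all. TTATGTAA was in 0 of the 9 windows and in 0.9% of all, and TATAAA was in the Oaz1 window and in 13.6% of all. A match is a string of letters, not a bound site, and its absence refers to these windows alone.

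Beyond the core genes, 24 related genes were tested in 4 lists, and 6 were called between genotypes at each time, beside the same 14.3% and 18.3% of all genes. At ZT10, 2 were higher and 4 lower in KO, and at ZT22, 1 was higher and 5 lower. Their median log2 difference was -0.08 and -0.05. When only the 2 groups compared were fitted, the ZT10 count was 3. Over all genes tested, that fit called 748 at ZT10, against 1425 with all libraries. Between times, 7 related genes were called in WT (2 higher and 5 lower at ZT22) and 10 in KO (5 higher and 5 lower), beside 24.2% and 42.6% of all genes. The WT count was 4 without WT ZT10 replicate 1 or WT ZT22 replicate 1 and 3 without WT ZT22 replicate 2, and the KO count was 5 without KO ZT22 replicate 1 or 2 and 6 when only the 2 groups were fitted. Over all genes tested, the WT count went from 2404 to 1406, 1477 and 1290 in these fits, in the same order. The KO count over all genes went from 4239 to 3328, 3405 and 3547.

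Among 5 tested genes of ornithine and arginine supply, 2 were lower in KO at both times and none was higher. Beside these counts, 14.3% of all genes tested were called at ZT10 and 18.3% at ZT22, more of them lower than higher at both times. Slc7a2, a transporter of arginine, ornithine and lysine, stood at 16.1, 17.0 and 18.0 FPKM in WT and at 3.41, 2.95 and 4.43 FPKM in KO at ZT10. At ZT22 it stood at 11.7, 11.7 and 16.4 FPKM in WT and at 7.42, 5.65 and 6.74 FPKM in KO. The groups did not overlap, and the log2 differences were -1.98 ± 0.15 (limma, adjusted p = 3.2e-06) and -0.90 ± 0.15 (adjusted p = 0.00159). The change of this difference with time was 1.09 ± 0.21 (adjusted p = 0.0676), and it passed without KO ZT10 replicate 3 (0.0375) or WT ZT22 replicate 3 (0.0232). In KO, Slc7a2 was higher at ZT22 by 0.73 ± 0.15 (adjusted p = 0.0019; 0.0663 with the transcript length trend removed). Asl, argininosuccinate lyase, which makes arginine, was low, at 2.23 to 3.17 FPKM in WT and 0.7 to 1.65 FPKM in KO. It differed by -0.62 ± 0.15 at ZT10 (adjusted p = 0.0143; 0.065 without WT ZT10 replicate 2) and by -0.87 ± 0.15 at ZT22 (adjusted p = 0.00174). Oat, ornithine aminotransferase, was lower at ZT22 in KO (-0.41 ± 0.14, adjusted p = 0.0326), a call lost without KO ZT10 replicate 3 (0.0721), KO ZT22 replicate 1 (0.0766) or KO ZT22 replicate 2 (0.106), with the length trend removed (0.06) and when only the 2 groups were fitted (0.105). Arg2 and Slc7a1 were below the filter.

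Among 6 tested genes of other catabolism and transport, Atp13a3, whose human counterpart is a polyamine transporter, was the gene called between genotypes. It stood at 3.73, 5.12 and 5.49 FPKM in WT and at 8.43, 9.24 and 16.0 FPKM in KO at ZT10, and at 8.5, 9.13 and 7.21 FPKM against 16.4, 16.7 and 17.2 FPKM at ZT22. The groups did not overlap, with log2 differences of 1.04 ± 0.19 (limma, adjusted p = 0.00322) and 0.94 ± 0.19 (adjusted p = 0.00544). Atp13a3 was also higher at ZT22 than at ZT10 in WT (0.69 ± 0.19, adjusted p = 0.0211) and in KO (0.59 ± 0.19, adjusted p = 0.0256). The WT call was lost without WT ZT10 replicate 1, WT ZT22 replicate 1 or 2, or with the length trend removed (adjusted p from 0.0635 to 0.095). The KO call was lost in 8 alternatives, namely without KO ZT10 replicate 1 or 2 or any KO ZT22 library, with only the 2 groups fitted, under median-of-ratios scaling and with the length trend removed (from 0.0516 to 0.315). Atp13a2, a lysosomal polyamine exporter, was lower at ZT22 in WT (-0.75 ± 0.18, adjusted p = 0.012). Slc18b1, a vesicular polyamine transporter, was higher at ZT22 in WT (0.43 ± 0.11, adjusted p = 0.0174), a call lost without WT ZT10 replicate 2 (0.0717) or WT ZT22 replicate 2 (0.0652). In KO its difference between times was 0.30 ± 0.11 (adjusted p = 0.0492), lost in 15 alternatives, among them the fits without any library other than WT ZT10 replicates 1 and 2 (from 0.0556 to 0.156). Paox, an oxidase of acetylated polyamines, stood at 0.9 to 4.86 FPKM, and its call between times in KO (-0.73 ± 0.26, adjusted p = 0.0403) was lost in 9 alternatives, among them the fits without WT ZT10 replicate 2, KO ZT10 replicate 3, WT ZT22 replicate 1 or any KO ZT22 library (adjusted p from 0.0503 to 0.13).

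**Figure D4:**
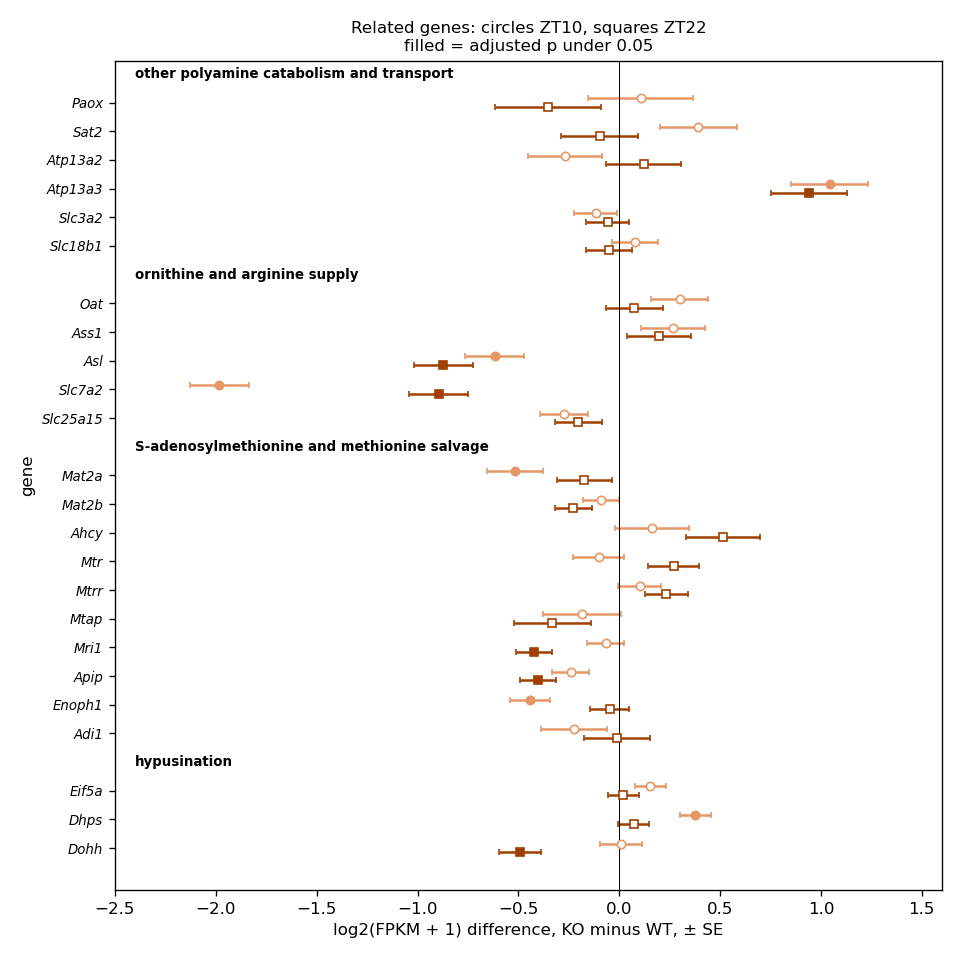
Log2 difference between genotypes (KO minus WT) with its SE for 24 related genes in 4 lists, at ZT10 (circles) and ZT22 (squares); filled symbols have an adjusted p under 0.05 over all genes tested. Atp13a3 is filled to the right of 0 at both times, and Slc7a2 and Asl are filled to the left at both times.

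Of 10 tested genes of S-adenosylmethionine supply and methionine salvage, 2 were lower in KO at ZT10, 2 at ZT22 and none was higher at either. Over all genes tested, 14.3% were called at ZT10 (533 higher and 892 lower) and 18.3% at ZT22 (710 higher and 1116 lower). The salvage enzymes re-form methionine from the methylthioadenosine that spermidine and spermine synthase release. At ZT10 the lower genes were Enoph1 (-0.44 ± 0.10, limma, adjusted p = 0.00936; 0.0601 when only the 2 groups were fitted), a salvage enzyme, and Mat2a (-0.52 ± 0.14, adjusted p = 0.025), which makes S-adenosylmethionine and was named after its values were seen. The Mat2a call was lost without WT ZT10 replicate 2 (0.0553) or replicate 3 (0.108) or KO ZT10 replicate 2 (0.0867), and when only the 2 groups were fitted (0.054). At ZT22 they were the salvage enzymes Mri1 (-0.42 ± 0.09, adjusted p = 0.00766) and Apip (-0.40 ± 0.09, adjusted p = 0.0099). Between times, Mri1 was lower at ZT22 in KO (-0.64 ± 0.09, adjusted p = 0.000205) and in WT (-0.29 ± 0.09, adjusted p = 0.0355), the latter lost without WT ZT10 replicate 1 or 2 or any WT ZT22 library, with no filter on low values and when only the 2 groups were fitted (from 0.0521 to 0.13). Enoph1 was lower at ZT22 in WT (-0.30 ± 0.10, adjusted p = 0.0427), a call lost without WT ZT10 replicate 1 or 3 or any ZT22 library, and in the same other fits (from 0.0508 to 0.147). Mat2a was higher at ZT22 in KO (0.44 ± 0.14, adjusted p = 0.0213), a call lost without KO ZT10 replicate 2 or KO ZT22 replicate 1 or 2, under median-of-ratios scaling and with the length trend removed (from 0.0574 to 0.0862). Mtr, methionine synthase, was higher at ZT22 in KO (0.72 ± 0.13, adjusted p = 0.000754).

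Hypusination, the modification of the translation factor eIF5A that consumes spermidine, was represented by 3 tested genes. Eif5a itself stood at 268 to 337 FPKM and was called in no comparison. Dhps, deoxyhypusine synthase, was lower at ZT22 in WT (-0.33 ± 0.08, limma, adjusted p = 0.00979) and in KO (-0.64 ± 0.08, adjusted p = 8.77e-05), and higher in KO at ZT10 (0.38 ± 0.08, adjusted p = 0.00604; 0.0511 when only the 2 groups were fitted). Dohh, deoxyhypusine hydroxylase, was lower at ZT22 in WT (-0.52 ± 0.10, adjusted p = 0.00437) and in KO, where it went from 28.1, 25.9 and 31.1 FPKM to 13.7, 12.01 and 14.8 FPKM (-1.02 ± 0.10, adjusted p = 3.36e-05). At ZT22 it was lower in KO than in WT (-0.49 ± 0.10, adjusted p = 0.0068).

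Of 8 tested regulators with a known link to these genes, 5 were higher in KO at ZT10 and 6 at ZT22, beside 5.36% and 7.13% of all genes tested that were called higher; the list holds clock genes that REV-ERBs act on, and Nr1d1 and Nr1d2 themselves. Myc, an activator of Odc1 in growing cells, was low at 1.01 to 6.04 FPKM and not called (-0.20 ± 0.37 at ZT10, limma, adjusted p = 0.763, and 0.34 ± 0.37 at ZT22, adjusted p = 0.564). Its partner Max was higher in KO at ZT10 (0.57 ± 0.11, adjusted p = 0.00435) and at ZT22 (0.45 ± 0.11, adjusted p = 0.0144; 0.0542 without KO ZT22 replicate 2), while Mxi1, a MAX partner that opposes MYC, was not called. Cdkn1a, the cell cycle inhibitor p21, stood at 4.27 to 13.4 FPKM in the WT libraries and at 271 to 841 FPKM in those labelled KO. The KO libraries stood at 270.5, 270.9 and 840.7 FPKM at ZT10, the last being replicate 3, and at 408.5 to 509 FPKM at ZT22. Clock was higher in KO by 1.15 ± 0.13 at ZT10 (adjusted p = 9.96e-05) and by 1.24 ± 0.13 at ZT22 (adjusted p = 5.71e-05). Nr1d2 was higher in KO at ZT22 (0.36 ± 0.08, adjusted p = 0.0078).

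For the genes called in at least 2 comparisons, the nearest profiles over the 12 libraries were sought among all genes tested. By Pearson correlation of log2(FPKM + 1), Amd1 was nearest to Irf5 (0.97), Synm (0.968) and Zdhhc18 (0.962). Smox was nearest to Mapkapk5 (0.97), Padi2 (0.965) and Fam20b (0.963). Oaz1 was nearest to Uqcrfs1 (0.984), Samm50 (0.975) and Dapk3 (0.973). These values describe 12 libraries in 4 groups and include the group differences.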

How the data were processed

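RNA was sequenced from tibialis anterior in 12 libraries, grouped by sample title. HISAT2, HTSeq, DESeq2 1.8.2, GRCm38 and mm10 stand in the submitters' processing notes, without a role or order. No source used here gives the annotation, the strand setting or the model behind the authors' tests. The authors deposited FPKM values per library. The header names no unit, and FPKM was inferred from the values: multiplied by annotated median transcript length in kb they summed to 634708 to 698249 per library, and by exon-union length to 1733408 to 1845941. The authors also deposited log2 fold changes, p-values and q-values for 4 pairs of groups, used as given. Depth was not given as counts; the steps between low values gave rough estimates of 11.0 to 13.13 in units of 1e+06 fragments (mean cosine 0.218 to 0.485), so no intervals or limits for 0 were computed.

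Of 14583 entries, 82 were empty and 230 exact repeats; of 2 differing Plin2 entries the higher was kept. Of 14270 genes, 14081 matched GENCODE M21, and 0 library columns were unused. The test was limma 3.58.1 (R 4.3.3; intensity trend, 1 mean per group over the 12 libraries) on log2(FPKM + 1), for genes averaging 1 FPKM or more, with Benjamini-Hochberg adjustment over all genes tested, called under 0.05, and the fit was tested on simulated data. Differences on that scale understate the change of low genes. Each p-value is two-sided and measures only the spread between these samples, since the labels do not say that they are separate animals. The alternatives were a pseudocount of 0.1, no filter, a replicate block, only the groups compared, median-of-ratios scaling, robust empirical Bayes, each library left out, and, chosen after seeing the data, removal of a transcript length trend and a sum of Amd1 and Amd2. The genes, lists and naming rule were chosen with earlier results of these data known. The rule names all 10 genes, at most the 4 genes with the smallest adjusted p per related list among those called, all regulators except 1 that is not reported here, and the 3 nearest genes for genes called in at least 2 comparisons.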

Additional observations from a re-analysis of the deposited data

How the results depend on the processing

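Every called difference of a polyamine gene kept its direction in every alternative run. Over the alternatives, 25 values of polyamine genes lost the call and 22 gained it, and of the values printed for other named genes, nearly all called, 85 lost it and 2 gained it. Sign changes came to 29 for polyamine genes and 1 for others, all of uncalled values. The cause was not tested.

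With 1 library left out at a time, the number of polyamine genes called ranged from 2 to 5 between genotypes at ZT10, from 1 to 4 at ZT22, from 0 to 3 between times in WT, from 3 to 6 in KO and from 0 to 2 for the difference of the genotype differences. Related genes called ranged from 4 to 7, 6 to 9, 3 to 8, 5 to 10 and 0 to 1 in the same comparisons. Over all genes tested the counts ranged from 847 to 1562, 1035 to 2372, 1290 to 2929, 3328 to 4247 and 2 to 77. With only the groups compared in the fit, 3 related genes were called at ZT10 and 6 between times in KO. Over all genes tested that fit called 748 and 3547, and it has fewer libraries.

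Median-of-ratios scaling turned the uncalled time differences of Odc1 in KO (-0.05), Smox in WT (-0.08) and Sat1 in KO (-0.02), and removal of the transcript length trend turned Smox in WT (-0.03) and the change of the Srm genotype difference with time (0.07). With 1 library left out, uncalled time differences in KO ranged from -0.23 to 0.51 for Odc1, -0.42 to 0.24 for Amd1, -0.78 to 0.27 for Amd2, -0.02 to 0.54 for Smox and -0.06 to 0.31 for Sat1. Those in WT ranged from -1.19 to 0.58 for Amd2, -0.14 to 0.19 for Smox and -0.29 to 0.01 for Azin1. The change of the genotype difference with time ranged from -0.97 to 0.80 for Amd2, -0.17 to 0.12 for Srm and -0.06 to 0.50 for Smox. The genotype difference ranged from -0.30 to 0.07 for Sat1 and -0.51 to 0.18 for Myc at ZT10, and from -0.02 to 0.05 for Oaz2 at ZT22. The sum of Amd1 and Amd2 differed between genotypes by -1.44 at ZT10 and -0.95 at ZT22.

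The replicate numbers were checked as pairs: over 18 pairs of same-numbered libraries the deviations from group means correlated at -0.134 to 0.21, with 2 over 0.1 and a median of 0.0615, against -0.2 to 0.135 with a median of -0.0245 over 36 differently numbered pairs. No source pairs the libraries, so those with the same number were treated as sharing only a number. The correlations do not decide whether they are pairs, since the ranges of the 2 kinds of pair overlap. With the replicate block, the counts of polyamine genes called stayed at 2, 3, 2, 4 and 0, with Odc1 at ZT22 gained between genotypes (1.16, adjusted p = 0.0266) and Oaz1 lost there (-0.27, adjusted p = 0.0724). Without counts, low genes such as Srm, Sat1, Azin1 and Paox cannot be given an interval for sampling of fragments, and 3 libraries per group limit every call.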
